A study of Mus musculus with 16 samples.

Results

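The 10 genes described here encode CC chemokines, the small secreted proteins that draw leukocytes to a site of inflammation, and were followed in a CPEB4 RNA-immunoprecipitation experiment in mouse bone marrow-derived macrophages (BMDMs). Members were taken by symbol and were Ccl2, Ccl3, Ccl4, Ccl5, Ccl6, Ccl7, Ccl9, Ccl12, Ccl17 and Ccl22, of 14925 genes with a symbol. Each of the 10 had a single 3′-UTR region in the table, and each had at least 1 read in some library. BMDMs were grown with L-cell conditioned medium, the source of M-CSF, from the femur marrow of adult mice labelled strain C57BL/6J 129. Wildtype (WT) BMDMs, marked 76 in the sample titles, and CPEB4 KO BMDMs, marked 73, were used. What these numbers stand for is not stated. Both were left untreated or given 10 ng/ml lipopolysaccharide (LPS) from E. coli for 9 h. The KO lacks CPEB4 in the whole animal according to the study's methods. From each, RNA bound to an anti-CPEB4 antibody after formaldehyde cross-linking (RIP) and RNA of the lysate (Input) were sequenced. This gave 8 libraries from 16 samples, as each library was run on 2 lanes, with no replicate. Genotype therefore cannot be told apart from any other difference between the cells marked 76 and those marked 73. Each test below compares the reads of 2 libraries, not the genotypes or the treatments.

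CPEB4 binds mRNAs at cytoplasmic polyadenylation elements (CPEs), U-rich motifs of 3′-UTRs through which poly(A) tail length, translation and stability are set. AU-rich elements (AREs), built from AUUUA pentamers, are bound by decay factors such as TTP and are common in the 3′-UTRs of cytokine and chemokine mRNAs. Macrophages that sense LPS through TLR4 switch on many chemokine genes by way of NF-κB, and some of them through type I interferon. Ccl2, Ccl7 and Ccl12 are monocyte chemoattractants that signal through CCR2. Ccl3, Ccl4 and Ccl5 attract monocytes and T cells, Ccl6 and Ccl9 are rodent ligands of CCR1, and Ccl17 and Ccl22 are ligands of CCR4 that attract T cells.

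The 8 libraries held from 467696 to 2492300 reads in 3′-UTRs with a symbol. These came to between 46.4% and 51.1% of the library totals of the 4 Inputs and to 48.9% and 70.1% in the WT RIPs, untreated and with LPS, but to 27.3% and 31.8% in the KO RIPs. The 3′-UTR of Cpeb4, the targeted gene, had a level of 130 CPM (scaled to the 3′-UTR reads of a library) in the untreated WT Input against 52.0 CPM in the KO, and of 136 against 52.6 with LPS. Whether this region lies in the deleted part of the gene is not given in the sources used here, so it is a limited check of the labels. The 8 macrophage markers examined (Csf1r, Adgre1, Cd68, Itgam, Cd14, Lyz2, Fcgr1, Mertk) were all in the table and summed to between 1764 and 4482 CPM. Of the markers of other cells, 4 of 5 dendritic, 2 of 6 neutrophil, 3 of 4 T and NK, 2 of 3 B, 3 of 4 fibroblast and 2 of 2 erythroid genes were analysed and no mast or basophil gene. Each of these lists summed to at most 10.7 CPM in any library, the highest being the dendritic list in the untreated KO RIP.

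The 3′-UTRs of the members were examined for both kinds of motif. All 10 regions lie in the last exon of the annotated transcript and overlap no other gene. Ccl2, Ccl7 and Ccl12 lie together on mm10 chromosome 11, and Ccl3, Ccl4, Ccl5, Ccl6 and Ccl9 form a second group farther along the same chromosome. Ccl17 and Ccl22 are on chromosome 8. The stretches of 30 bases printed here hold the most CPE motifs of each 3′-UTR, and are shown for the members on chromosome 11 with a CPE motif. Ccl17 and Ccl22 also hold a CPE motif but are not printed. The stretches of Ccl2 and Ccl9 hold no ATTTA pentamer. All stretches are written in the transcript's direction, with T for U, and capitals mark CPE motifs and ATTTA pentamers.

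Ccl2, chr11:82037331-82037360, + strand: atgagagatgaaTTTTGTaaagatgaatgg
Ccl7, chr11:82047253-82047282, + strand: ttattaatatTTTTATTTAattagccatgt
Ccl12, chr11:82103309-82103338, + strand: agagatgtTTTTAATaATTTAaacaaactt
Ccl3, chr11:83648039-83648068, - strand: actATTTAaTTTTGTaATTTATTTTATtgt
Ccl4, chr11:83664498-83664527, + strand: ATTTAaatctctgtgtagactttgTTTTGT
Ccl6, chr11:83588728-83588757, - strand: tgtTTTTATagatATTTAaagcATTTAtcc
Ccl9, chr11:83574458-83574487, - strand: tTTTTAATtTTTTGTttgtttgtTTTTGTt

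A CPE motif was any of TTTTAT or else TTTTAAT or else TTTTAAAT or else TTTTACT or else TTTTCAT or else TTTTAAGT or else TTTTGT, searched on the transcript strand. A CPE and a pentamer may share bases, as in the Ccl7 stretch, where the run marked in capitals is TTTTAT followed by an overlapping ATTTA. Of the 10 members, 9 held a CPE motif, against 73.4% of the 14925 genes, whose regions differ in length. This search takes no account of the distance to the polyadenylation signal, which the authors' deposited CPE prediction uses. That prediction was none for Ccl2, Ccl4, Ccl5, Ccl6 and Ccl22. It was repression for Ccl3, Ccl7 and Ccl9 and activation for Ccl12 and Ccl17. Ccl5 held no CPE motif, and it was also without an ATTTA pentamer (chr11:83525778-83525976, - strand, 199 bases). Ccl17 held 1 CPE motif and no pentamer in 182 bases.

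The motif content differed several-fold among the others. Ccl3 held 5 pentamers and 3 CPE motifs in 409 bases, and 0.622% of 1287 regions within 20% of its length had as many pentamers. Ccl12 held 5 pentamers in 167 bases, a number reached by 0.295% of 678 regions of like length. Ccl7 had the most CPE motifs per length, with 4 in 435 bases, and 7.38% of 1369 like-length regions had as many. Ccl9 held 14 CPE motifs in 2465 bases, and 11.2% of 1945 like-length regions had as many. Ccl2 held 2 CPE motifs and 1 pentamer in 275 bases, Ccl4 held 2 of each in 302 bases and Ccl22 held 2 of each in 1813 bases. The nonamer TTATTTATT was in none of the 10 and in 7.05% of all genes. A match describes the letters of the region and is not a measured binding site.

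**Figure D1:**
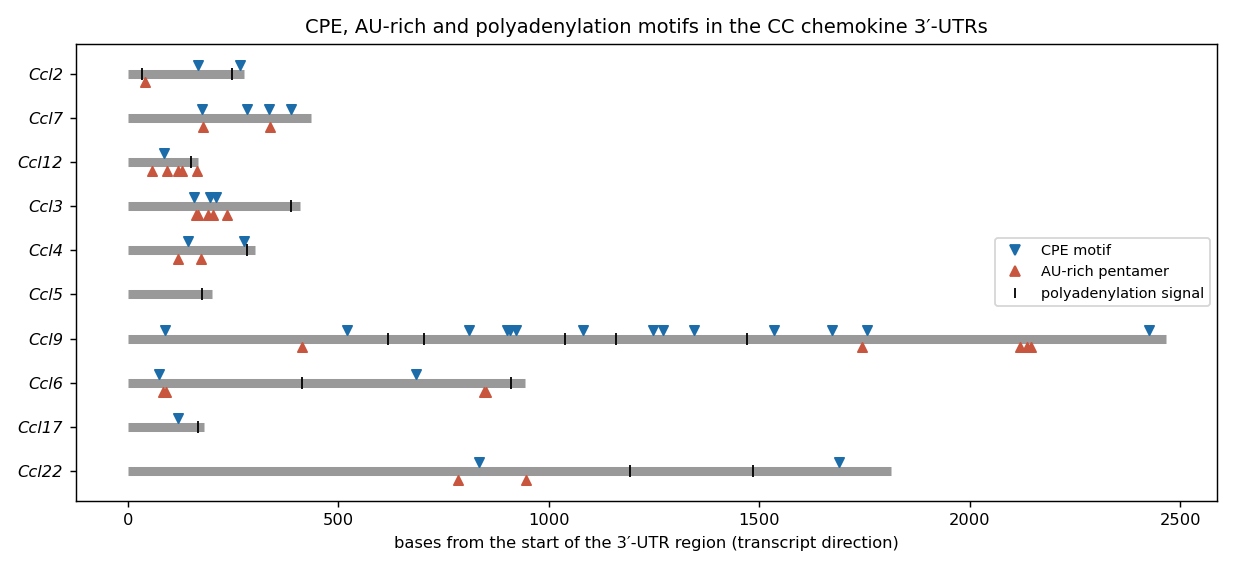
Map of the 10 member 3′-UTRs drawn to scale, with the distance in bases from the start of the region in the transcript's direction on the x axis. Blue triangles mark CPE motifs, red triangles ATTTA pentamers and black ticks polyadenylation signals (AATAAA or else ATTAAA): Ccl3 and Ccl12 carry 5 pentamers each and Ccl5 carries neither of the first 2 kinds.

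Levels in the Inputs were described first. On the RPKM scale, which corrects for the length of the region and here uses the 3′-UTR total, 4 members had a level over 50 in untreated WT macrophages. Ccl9 had 371 (95% Wilson interval 347 to 397), Ccl6 had 346 (309 to 387) and Ccl4 had 282 (226 to 351), and the intervals of neighbours in this order overlapped. Ccl3 followed with 94.7 (68.4 to 131), below Ccl4 by more than the intervals. The untreated KO Input had the same order of these 4, with 356, 294, 215 and 62.7 RPKM. The other 6 members had at most 11 reads in either untreated Input, and the only neighbours among them whose intervals did not overlap were Ccl2 and Ccl22 in the KO. All intervals here cover counting error only.

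With LPS the order changed. Ccl5 had the highest Input level of the 10 in both genotypes, with 1740 RPKM (1612 to 1878) for WT cells and 2157 (1997 to 2330) for KO cells. Ccl4 came next with 969 and 1042 RPKM, followed by Ccl9 with 860 and 892 and Ccl3 with 610 and 491. Ccl6 (312 and 301), Ccl7 (182 and 204) and Ccl2 (99.7 and 65.4) lay below these. The intervals of neighbours from Ccl5 down to Ccl2 did not overlap in either genotype. Ccl22, Ccl12 and Ccl17 had the lowest levels, at 76.5, 60.0 and 2.90 RPKM in the WT.

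**Figure D2:**
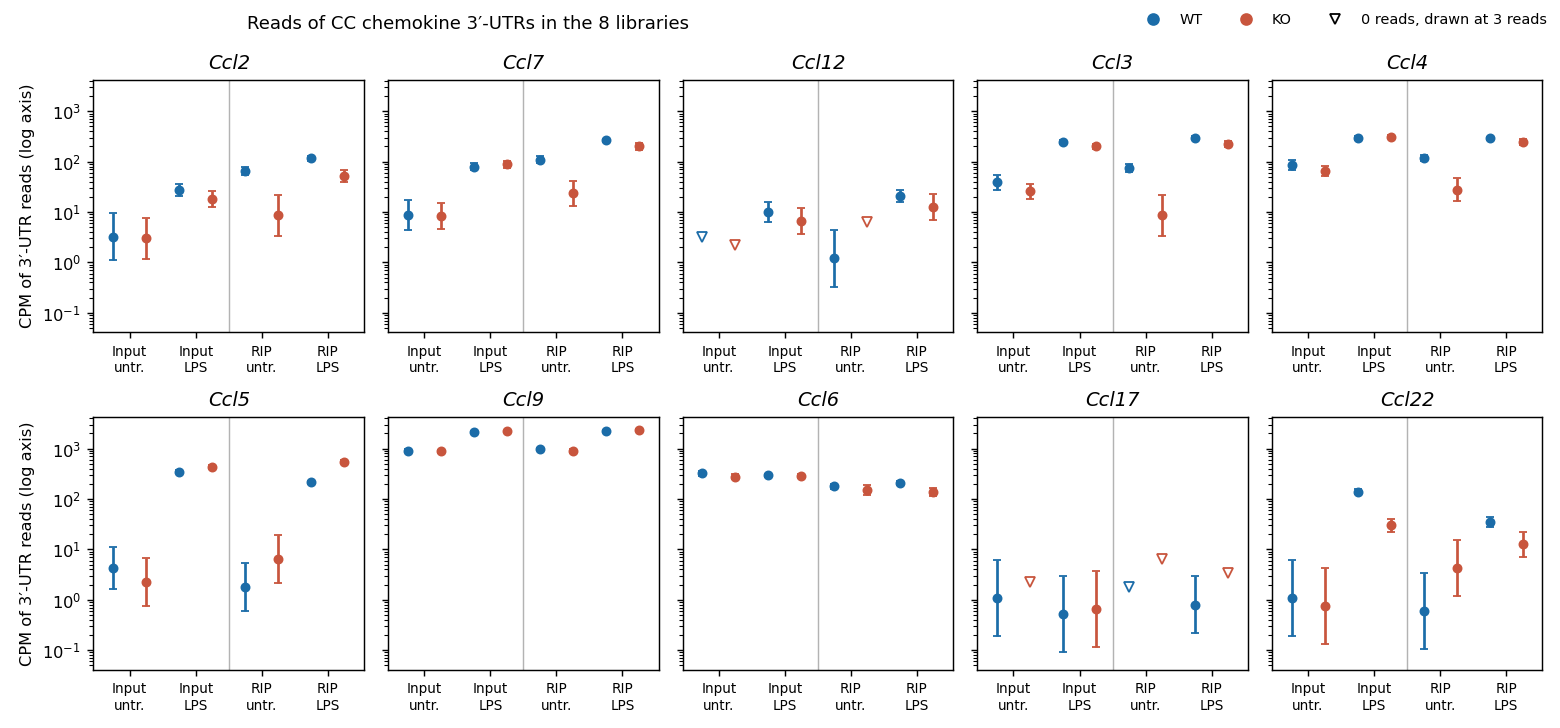
Reads of the 10 members in the 8 libraries, in CPM of 3′-UTR reads on a log axis, with WT in blue and KO in red. Bars are 95% Wilson intervals from the reads of 1 library, and open triangles stand for 0 reads and are drawn at the level of 3 reads. Ccl2, Ccl7, Ccl3 and Ccl4 show a gap between the WT and KO RIP in untreated cells that is narrower with LPS.

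The LPS change of the Inputs was then asked for each genotype. In both, 8 of the 9 members tested were called higher with LPS, and none lower. Ccl2, Ccl5, Ccl12 and Ccl22 had at most 4 untreated Input reads in either genotype, and Ccl7 had 8 in the WT. These reached the minimum of 10 reads in the pair only through the LPS library, so a lower call was not open to them. A member was called with a Benjamini-Yekutieli adjusted p under 0.02 and a log2 ratio beyond 0.5, or an unadjusted p under 0.02 and a log2 ratio beyond 1.2, by a chi-square test on reads. The shares of all genes called higher with LPS were 13.7% (WT) and 14.4% (KO), and those called lower 16.5% and 20%. The median log2 ratio of the 9 was 2.65 in the WT and 2.31 in the KO when Ccl12 was set at its lower bound, and the median of all genes was -0.08 and -0.18. In bulk RNA a change in the number of cells of a kind and a change in RNA per cell cannot be told apart.

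Ccl5, which attracts T cells and monocytes, and the CCR4 ligand Ccl22 had the highest LPS ratios in the WT Input. Ccl5 had 4 WT reads untreated and 657 with LPS, and 3 and 645 KO reads. The log2 ratios were 6.01 (95% interval 4.74 to 7.28) for the WT and 7.16 (5.74 to 8.57) for the KO. Ccl22 had 1 and 263 WT reads and 1 and 45 KO reads, or a ratio of 6.01 (4.01 to 8.02) and 4.34 (2.30 to 6.39). These ratios rest on 1 to 4 untreated reads, which is why their intervals are wide.

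The monocyte chemoattractants were called higher too. Ccl7 had 8 and 150 WT reads and 11 and 133 KO reads, with log2 ratios of 3.04 (2.07 to 4.01) and 3.30 (2.45 to 4.15). Ccl2 went from 3 to 52 reads and from 4 to 27, with 2.70 (1.23 to 4.16) and 2.31 (0.93 to 3.68). Ccl12 had 0 reads in both untreated Inputs and 19 (WT) and 10 (KO) with LPS, which is at least 3.10-fold and 2.94-fold higher against a floor of 3 reads per library. Ccl12 was called through the unadjusted p only (0.0023 and 0.0030). By edgeR's exact test with a preset variation of 0.4, 6 members were called in the WT Input and 5 in the KO Input. Ccl2 and Ccl12 were then not called in the KO, Ccl4 was not called in the WT and Ccl9 was called in neither.

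Ccl3 and Ccl4, macrophage inflammatory proteins that attract monocytes and T cells, were called in both genotypes with ratios below those of Ccl5. Ccl3 went from 36 to 473 reads (WT) and from 34 to 302 (KO), a log2 ratio of 2.65 (2.17 to 3.13) and 2.93 (2.43 to 3.44). Ccl4 went from 79 to 555 and from 86 to 473, or 1.77 (1.43 to 2.10) and 2.27 (1.94 to 2.60). Ccl9, with the most reads of the 10, went from 850 to 4023 and from 1165 to 3302, a log2 ratio of 1.21 (1.10 to 1.32) and 1.32 (1.23 to 1.42). Ccl9 alone held from 59.6% to 79.4% of the reads of all 10 members in a library.

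Ccl6 and Ccl17 stood apart from these. Ccl6 was not called in either genotype, with 303 (untreated) and 559 (LPS) WT reads and 368 and 427 KO reads, a log2 ratio of -0.15 (-0.35 to 0.05) and 0.03 (-0.17 to 0.23). Ccl17 had at most 2 reads in any library and was not tested anywhere. The difference of the Input LPS change between WT and KO was tested for the members with at least 10 reads in all 4 Inputs, and none passed. The value nearest to the threshold was that of Ccl4, at -0.50 (-0.97 to -0.03) with a Benjamini-Hochberg adjusted p of 0.31 from a normal test over 5468 genes, of which 2.54% passed.

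**Figure D3:**
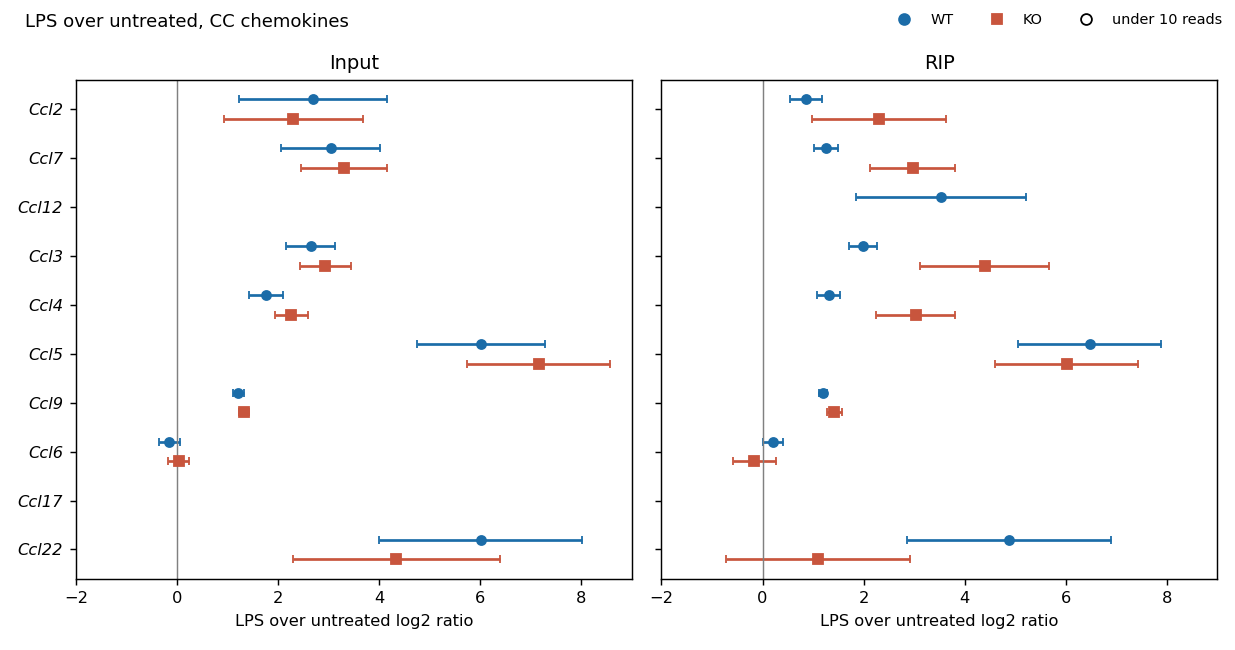
LPS over untreated log2 ratio (x axis) of each member in the Inputs (left) and the RIPs (right), with WT as blue circles and KO as red squares. Bars are 95% intervals from the read counts, and members with 0 reads in a library or 3 or fewer in both are not drawn; Ccl6 lies near 0, and in the RIPs Ccl4 has 1.31 in the WT and 3.03 in the KO.

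RIP was next set against Input within a genotype, where a RIP from KO cells measures what the antibody and beads recover without the antigen. The CCR2 ligands Ccl2 and Ccl7 had the highest WT ratios of the 10. Ccl2 had 107 reads in the untreated WT RIP and 3 in its Input, a log2 ratio of 3.91 (2.47 to 5.35) that lay above that of 99.3% of 8359 genes. Ccl7 had 183 and 8 reads, or 3.51 (2.55 to 4.48). Ccl3 was also called in the RIP direction in untreated WT cells, at 0.90 (0.37 to 1.43), which makes 3 of 6 members tested against 23.5% of all genes. Ccl2 and Ccl7 reached the minimum of 10 reads only through the RIP, which limits the comparison with that share. Ccl4 had 0.44 (0.07 to 0.82) and Ccl9 0.10 (-0.02 to 0.22), neither of them called.

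In the KO, Ccl2 and Ccl7 were on the RIP side as well, at lower ratios. Ccl7 had 11 reads in the untreated KO RIP and 11 in its Input, a log2 ratio of 1.50 (0.35 to 2.66) that was called through the unadjusted p of 0.011. Ccl2 had 4 reads in each, too few for a test. With LPS the KO ratios were 1.50 (0.82 to 2.18) for Ccl2 and 1.17 (0.85 to 1.50) for Ccl7, and the WT ratios were 2.07 (1.65 to 2.50) and 1.73 (1.47 to 1.99). Both genes were called in the RIP direction in both genotypes with LPS, when 25.1% (WT) and 15.6% (KO) of all genes were. With the library totals in place of the 3′-UTR totals, the KO ratios with LPS were 0.82 and 0.49 and the Ccl7 ratio in untreated KO cells was 0.74, and none of these was called. By the exact binomial test Ccl7 was not called in untreated KO cells either. By edgeR's exact test with the preset variation, the members still called in the 4 comparisons were Ccl2 and Ccl7 in untreated WT cells and Ccl2 in the WT with LPS.

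Ccl6 lay on the Input side in all 4 comparisons, and was called there in each. Its log2 ratio was -0.87 (-1.10 to -0.64) in untreated WT cells, -0.85 (-1.22 to -0.49) in untreated KO cells, -0.52 (-0.69 to -0.34) in the WT with LPS and -1.05 (-1.34 to -0.76) in the KO with LPS. The share of all genes called in the Input direction was 21.3%, 8.99%, 28% and 11.8% in these. The WT call with LPS did not hold with library totals, at -0.00295, with TMM scaling, at -0.22, or with median-of-ratios scaling, at -0.34. Ccl22 was also on the Input side with LPS, with 87 RIP against 263 Input reads of the WT, or -1.98 (-2.33 to -1.63), and 11 against 45 of the KO, or -1.15 (-2.07 to -0.24, not called).

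In untreated cells Ccl3 and Ccl4 had values on opposite sides in the genotypes, and with LPS Ccl5 did. In untreated KO cells Ccl3 had -1.30 (-2.66 to 0.05) and Ccl4 -1.13 (-1.95 to -0.32), neither called, where the WT values were above 0. With LPS Ccl3 was above 0 in both genotypes, at a WT value of 0.25 (0.08 to 0.41) and a KO value of 0.16 (-0.10 to 0.42), and Ccl4 below 0 in both, at -0.02 (-0.18 to 0.14) and -0.37 (-0.60 to -0.14), none of them called. Ccl5 with LPS had 530 RIP and 657 Input reads from WT cells, or -0.70 (-0.87 to -0.54, called), and 482 and 645 from KO cells, or 0.37 (0.20 to 0.54, not called). The share of all genes called in the RIP direction in untreated KO cells was 14%. The WT value of Ccl5 was not called with library totals (-0.19) or TMM scaling (-0.40), and with library totals its KO value was on the Input side too (-0.32). Ccl9 lay between 0.02 and 0.12 in all 4 comparisons on the 3′-UTR totals. Ccl12 had 0.99 (0.24 to 1.73) in the WT with LPS, not called. With library totals Ccl3 (0.76), Ccl9 (0.60) and Ccl12 (1.50) were called in the RIP direction there, and with TMM Ccl3 (0.55) and Ccl12 (1.29). Of 8767 genes, 3328 were called in that direction with library totals and 2858 with TMM, against 2203 on the 3′-UTR totals. With library totals no member was called in the RIP direction in the KO. Ccl3, Ccl4, Ccl6 and Ccl9 were called in the Input direction there, untreated and with LPS, and Ccl22 with LPS. All genes moved the same way. In the untreated KO 2658 of 7708 genes were called in the Input direction with library totals, against 693 on the 3′-UTR totals. With LPS 2775 of 7861 were, against 929.

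**Figure D4:**
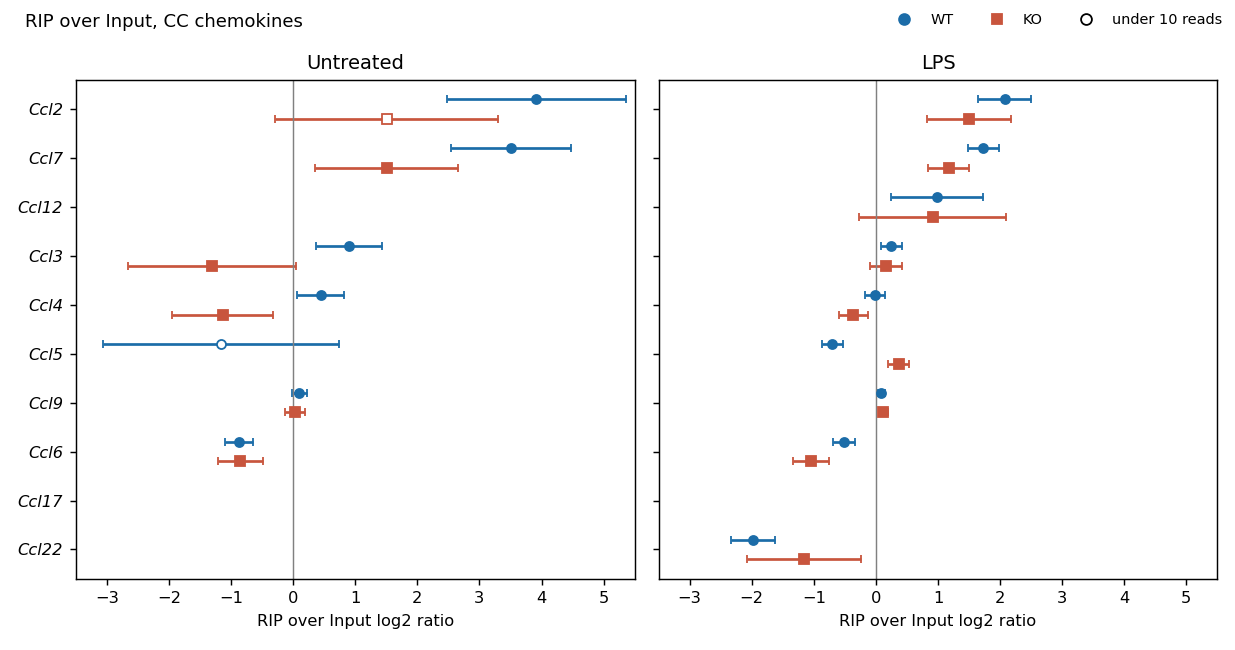
RIP over Input log2 ratio (x axis) of each member, untreated (left) and with LPS (right), with WT as blue circles and KO as red squares. Bars are 95% intervals from the read counts and open symbols have under 10 reads in the pair. Ccl2 and Ccl7 lie at 3.91 and 3.51 in untreated WT cells, and Ccl6 lies below 0 in all 4 comparisons.

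The comparison of the WT RIP with the KO RIP addresses which mRNAs were recovered with CPEB4, and it was read beside the same comparison of the Inputs. For the Cpeb4 3′-UTR the WT over KO log2 ratio was 1.69 in the RIPs and 1.31 in the Inputs untreated. With LPS it was 1.07 and 1.36. In untreated cells, 4 of the 6 members tested were called in the WT direction and none in the KO direction. Of these, Ccl2 and Ccl3 had 4 KO reads each and reached the minimum of 10 reads only through the WT RIP. A call in the KO direction was thus not open to them. Among 8064 genes tested, the WT direction held 6.7% and the KO direction 9.33%. The median log2 ratio was 2.04 for the 6 members and -0.10 for all genes. In the untreated Inputs none of 5 members was called, where 0.854% (WT) and 1.45% (KO) of all genes were called. Of the 5, 1 member, Ccl6, had an unadjusted chi-square p under 0.05 there (0.037).

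The 4 members were the CCR2 ligands Ccl2 and Ccl7 and the macrophage inflammatory proteins Ccl3 and Ccl4. Ccl3 had 123 WT and 4 KO reads in the RIPs, which is 73.8 and 8.55 CPM and a log2 ratio of 2.80 (1.51 to 4.09). The Input reads of Ccl3 were 36 and 34, a ratio of 0.59 (-0.07 to 1.26). Ccl2 had 107 and 4 RIP reads, or 2.60 (1.31 to 3.89), beside 3 and 4 Input reads. Both rest on 4 reads of the KO RIP, the shallowest library of the 8. By edgeR's exact test with a preset variation of 0.4 between replicates, Ccl2 and Ccl3 were called and Ccl4 and Ccl7 were not.

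Ccl7 had 183 (WT) and 11 (KO) RIP reads, a log2 ratio of 2.11 (1.26 to 2.95), and 8 and 11 Input reads, with a ratio of 0.10 (-1.15 to 1.35). Ccl4 had 194 and 13 RIP reads, or 1.97 (1.18 to 2.75), and 79 and 86 Input reads, or 0.39 (-0.05 to 0.83). In each of the 4 genes the RIP difference was thus larger than the Input difference. Ccl6 (297 and 71 RIP reads) and Ccl9 (1631 and 417) were not called, at 0.22 (-0.15 to 0.59) and 0.13 (-0.02 to 0.29). Ccl5 had 3 reads in each RIP, and Ccl12, Ccl17 and Ccl22 had at most 2.

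After subtraction of the Input ratio, Ccl3 had 2.21 (0.75 to 3.66), Ccl7 2.01 (0.50 to 3.51) and Ccl4 1.58 (0.68 to 2.47) in untreated cells. These 3 of 5 members with enough reads had a value past 0.5 and an interval without 0, against 14.5% (WT direction) and 16.1% (KO direction) of 7201 genes. Ccl3 had enough RIP reads only through the WT RIP. Ccl2 had 2.41 (0.11 to 4.70) from Inputs below the read minimum. Ccl6 and Ccl9 had -0.02 (-0.45 to 0.41) and 0.07 (-0.13 to 0.27). With library totals Ccl6 and Ccl9 passed as well, at 0.81 and 0.90, and the median of all genes moved from -0.03 to 0.80.

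With LPS the picture was more mixed. Of 9 members tested, 3 were called in the WT direction (Ccl2, Ccl6 and Ccl22) and 1 in the KO direction (Ccl5), where 10.6% and 14.9% of 8310 genes were called. By edgeR's exact test with the preset variation, 0 of the 9 were called. Ccl2 had 292 WT and 45 KO reads in the RIPs, which is 117 and 51.6 CPM and a log2 ratio of 1.16 (0.71 to 1.60). Its Input reads were 52 and 27, or 0.58 (-0.08 to 1.24). The input-corrected ratio was 0.57 (-0.23 to 1.37), an interval that holds 0. With library totals (1.77), TMM (0.93) or median-of-ratios scaling (0.81) it was past 0.5 with an interval without 0.

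Ccl22 was the only member called between the Inputs. With LPS it had 263 WT and 45 KO reads, a log2 ratio of 2.18 (1.73 to 2.64), above that of 99.9% of 8151 genes. Each direction held 1.46% of all genes there. The RIP reads of Ccl22 were 87 and 11, or 1.36 (0.49 to 2.23), called through the unadjusted p of 0.00091. The input-corrected ratio was -0.83 (-1.81 to 0.15), an interval that holds 0. With library totals the order of both turned, with 2.50 in the RIPs, 2.13 in the Inputs and an input-corrected ratio of 0.37. Among the 8 other members with Input reads enough for the test, the ratios ran from -0.31 to 0.58 and none was called.

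Ccl6 had 513 and 119 RIP reads, or 0.58 (0.30 to 0.87), and 559 and 427 Input reads, or 0.05 (-0.13 to 0.23). Its input-corrected ratio was 0.53 (0.19 to 0.87). Ccl7 had 657 and 174 RIP reads, a ratio of 0.39 (0.15 to 0.64) that was not called (adjusted p 0.051), and an input-corrected ratio of 0.56 (0.15 to 0.97). The RIP ratio of Ccl7 was called in the WT direction with library totals (1.54), TMM (0.73) and median-of-ratios scaling (0.56). Ccl6 and Ccl7 were the 2 of 9 members past 0.5 in the WT direction, against 14.1% of 7575 genes.

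Ccl3 and Ccl4, called between the untreated RIPs, were not called with LPS on the 3′-UTR totals. With other scalings they were called in the WT direction. For Ccl3 these were library totals (1.54), TMM (0.74) and median-of-ratios scaling (0.56), and for Ccl4 library totals (1.39) and TMM (0.58). Ccl3 had 738 and 195 RIP reads, or 0.40 (0.17 to 0.63), with an Input ratio of 0.31 (0.10 to 0.52) and an input-corrected ratio of 0.09 (-0.22 to 0.40). Ccl4 had 721 and 212, or 0.25 (0.02 to 0.47), and an input-corrected ratio of 0.35 (0.07 to 0.63). The latter passed 0.5 with library totals (1.55), TMM (0.71) and median-of-ratios scaling (0.59). Ccl9 had 5612 and 2083, or -0.09 (-0.16 to -0.01), and Ccl12 had 51 and 11, or 0.60 (-0.31 to 1.51).

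Ccl5 went the other way. It had 530 WT and 482 KO reads in the RIPs, which is 213 and 553 CPM and a log2 ratio of -1.38 (-1.56 to -1.20). The Inputs had 657 and 645 reads, or -0.31 (-0.47 to -0.15, adjusted p 0.043, not called). The input-corrected ratio was -1.07 (-1.31 to -0.83), past 0.5 in the KO direction as were 21.4% of all genes. The direction of the input-corrected ratio of Ccl5 depended on the total used. With TMM and median-of-ratios scaling the RIP ratio was -1.04 and -1.22, and the input-corrected ratio was -0.71 and -0.83. With library totals the RIP ratio was -0.24, still on the KO side but not called. The input-corrected ratio was then 0.13, where the median of all genes was 1.09. The lower share of 3′-UTR reads in the KO RIPs bears on every RIP ratio between genotypes in this way. With library totals 8 members were called in the WT direction with LPS, all of those tested but Ccl5, and with TMM scaling 6 were, beside Ccl5 in the KO direction. All genes moved as well. Of the 8310 genes tested, 4408 were called in the WT direction with library totals and 1781 with TMM, against 884 on the 3′-UTR totals.

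**Figure D5:**
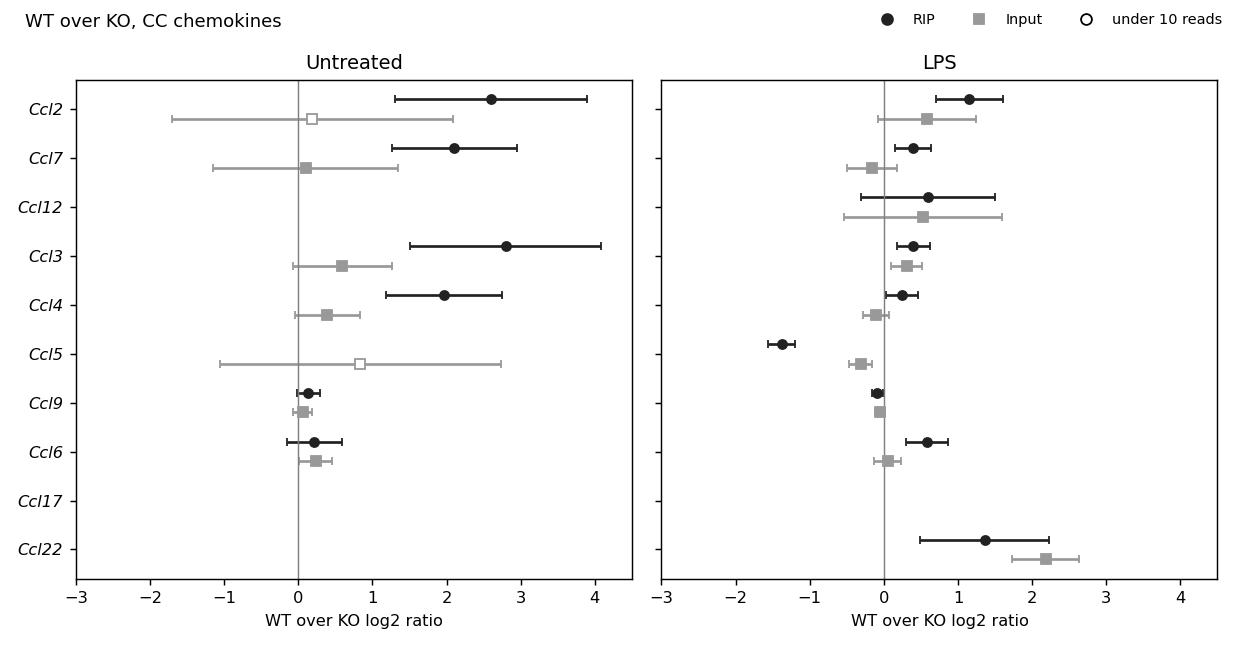
WT over KO log2 ratio (x axis) of each member in untreated cells (left) and with LPS (right), with RIPs as black circles and Inputs as grey squares. Bars are 95% intervals from the read counts and open symbols have under 10 reads in the pair. In untreated cells the RIP ratios of Ccl2, Ccl7, Ccl3 and Ccl4 lie at 1.97 or above while their Input ratios are at most 0.59, and with LPS Ccl22 lies at 2.18 in the Inputs.

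The LPS change of the RIPs followed from both. In the WT, 8 of 9 members were called higher with LPS (13.8% of all genes), and in the KO 7 of 9 (12.2%). None was called lower, where 22% (WT) and 16.8% (KO) of all genes were. Untreated, Ccl5, Ccl12 and Ccl22 had at most 3 RIP reads in either genotype, and Ccl2 and Ccl3 had 4 in the KO. These passed the read minimum only through the RIP with LPS, so a lower call was not open to them. Ccl12 was among the 7, at 11 reads against 0, at least 1.97-fold higher and called through the unadjusted p of 0.015, and Ccl6 was in neither, but was called higher in the WT with library totals or TMM scaling. By edgeR's exact test with the preset variation, 3 members were called in the WT (Ccl5, Ccl12 and Ccl22) and 4 in the KO (Ccl3, Ccl4, Ccl5 and Ccl7). The RIP of Ccl2 rose by a log2 ratio of 0.86 (0.54 to 1.18) in the WT, where its Input rose by 2.70, and the RIP over Input ratio of the WT was lower with LPS than untreated by -1.84 (-3.34 to -0.34). For Ccl7 that difference was -1.78 (-2.78 to -0.78), with a RIP change of 1.26 (1.02 to 1.49). For Ccl3 and Ccl4 it was -0.66 (-1.21 to -0.10) and -0.46 (-0.87 to -0.05), for Ccl9 -0.01 (-0.14 to 0.12), and for Ccl6 it was above 0, at 0.35 (0.07 to 0.64). In the KO, Ccl7 had -0.33 (-1.53 to 0.87), Ccl6 -0.19 (-0.66 to 0.27) and Ccl9 0.10 (-0.08 to 0.28), while Ccl3 had 1.46 (0.08 to 2.84) and Ccl4 0.76 (-0.08 to 1.61). These differences were computed as a description and have no test.

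Ccl4 and Ccl7 were the members whose RIP change with LPS differed between WT and KO in a test of the difference. The RIP reads of Ccl4 went from 194 to 721 in the WT, a log2 ratio of 1.31 (1.08 to 1.54), and from 13 to 212 in the KO, or 3.03 (2.25 to 3.81). Those of Ccl7 went from 183 to 657 (WT) and from 11 to 174 (KO), or 1.26 and 2.97 (2.12 to 3.81). WT minus KO was -1.72 (-2.53 to -0.91) for Ccl4 and -1.71 (-2.59 to -0.84) for Ccl7, with Benjamini-Hochberg adjusted p of 0.0035 and 0.0090 from a normal test over 4460 genes, of which 2.87% passed. Ccl6 and Ccl9 had 0.37 (-0.10 to 0.84) and -0.22 (-0.39 to -0.05), with adjusted p of 0.54 and 0.19. Ccl2 and Ccl3 had values of -1.45 (-2.81 to -0.08) and -2.40 (-3.71 to -1.09) and were not tested, since the untreated KO RIP held 4 reads of each.

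The authors' score, the highest score among MACS peaks of a RIP over Input that overlap the region, was above 0 for 4 of the 10 members. Ccl7 had 520.54 in the untreated WT RIP and 1072.57 in the WT RIP with LPS, and 0 in both KO RIPs. Ccl2 had 414.2 and 905.91 in the WT RIPs, 0 in the untreated KO RIP and 66.38 in the KO RIP with LPS. Ccl4 and Ccl12 had a score in the WT RIP with LPS only, at 66.58 and 68.25. The score has no unit that can be set against a read ratio.

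The genes whose level followed each member most closely over the 8 libraries were found by Pearson's r of log2 CPM, among 6667 genes with at least 100 reads in all. The 8 points are 2 assays, 2 treatments and 2 genotypes of paired material and are not independent, so r is a description. Ccl3 and Ccl4 were each other's nearest gene (r 0.991). Ccl7 was followed most closely by Nfkbia (0.991), which encodes an inhibitor of NF-κB, and Ccl2 by Dusp6 (0.987), a phosphatase of ERK. Ccl5 was followed by Wfdc17 (0.998), Ccl9 by Clec4e (0.998), a receptor for mycobacterial glycolipid, and Ccl22 by Csf3 (0.994), the granulocyte colony-stimulating factor. Ccl6 was followed by Rgs19 (0.991), a regulator of G protein signalling, and no member was close to it, the nearest being Ccl4 at 0.169.

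The receptors and the other ligands of the family were examined as well. Of 11 other CC ligands, 7 were in the table, but few had the reads for a test: 2 were tested between the Inputs with LPS and 1 between RIP and Input of the WT with LPS, and none of these was called. Of 13 receptors, 10 were in the table, and Ccr2 and Ccrl2 were those with calls in 3 or more comparisons. Ccr1 and Ccr3 were called in 1 comparison each. Ccr2, the receptor of Ccl2 and Ccl7, had 14 (WT) and 67 (KO) Input reads in untreated cells, a log2 ratio of -1.67 (-2.47 to -0.86, called in the KO direction). With LPS it had 3 and 14 reads, so that it was called lower with LPS in both, by -2.94 (-4.53 to -1.35) and -2.36 (-3.17 to -1.55).

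Ccrl2, a non-signalling receptor that binds the chemoattractant chemerin, had 2 Input reads untreated and 53 with LPS (WT) and 1 and 23 (KO), or 3.14 (1.46 to 4.82) and 3.40 (1.32 to 5.49). Of the 17 genes of the receptor signalling list (G proteins, arrestins, receptor kinases, PI3Kγ, Dock2, Rac and Rgs proteins), 3 of 16 tested were called higher and 5 lower with LPS in the WT Input, and 3 and 4 in the KO Input. All genes were called higher in 13.7% (WT) and 14.4% (KO) and lower in 16.5% and 20% there. The higher ones common to both were Pik3r5 and Rac2, and Arrb1, Dock2, Plcb2 and Rgs2 were lower in both.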

How the data were processed

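The members, the gene lists and the tests were chosen with earlier results of these data known. The authors aligned reads to mm10 with Bowtie2 2.2.2, removed duplicates and quantified Ensembl 3′-UTRs. The deposited counts are reads per region, with a single column per library, which was taken as the sum of its lanes. The deposited RPKM is the count per length and library total. The deposited score is the highest MACS 1.4.2 peak score over a region, and 0 without a peak. The region length, another deposited value, is in bases. Columns of the authors' own fold changes and p-values were not used. The counts of the receptor list leave out 1 gene, which is not reported here.

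Reads of the 495 of 31117 rows without a symbol (0.902% to 1.04% of a library) were left out. Reads of a region and of the rest of the 3′-UTRs were compared between 2 libraries by Pearson's chi-square test (two-sided). P-values were adjusted by Benjamini-Yekutieli over rows whose pair had 10 reads or more. Ratios were taken after adding 1 read, with normal 95% intervals, and were left out where neither library had more than 3 reads. Background shares use the region with the most reads of each gene. The genes named are the members, Cpeb4, list genes that were called or had at least 50 reads in all, as far as described, and the gene nearest to each member with at least 100 reads. Motifs were read from GRCm38.p6, the sequence of mm10. The test was also run on simulated reads of 30622 regions, 200 of them changed 4-fold. It recovered 99% (RIP, untreated) and 99.5% (RIP, LPS), and called 1.03% and 0.77% of the unchanged regions. The simulated reads varied by counting error only, and the changed regions had at least 50 reads in the pair. Differences between cultures, PCR copies and the lower 3′-UTR share of the KO RIPs were not simulated. These shares are therefore not error rates of the calls given above.

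Alternatives were library totals (from the authors' RPKM), TMM and median-of-ratios scaling, 0.1 reads added, other read minimums, the longest region per gene, a binomial test (exact), edgeR's exact test (4.0.16) at a preset variation of 0.4, Benjamini-Hochberg adjustment, the score criterion, and log2 of RPKM + 1. Python 3.11.15, scipy 1.17.1 and R 4.3.3 were used. PCR reads without molecular identifiers are not independent molecules, so intervals and floors cover counting error only.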

Additional observations from a re-analysis of the deposited data

Results flagged for a closer look

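Between WT and KO, the LPS change of the RIP differed for Ccl4, by -1.72 on the log2 scale (95% interval -2.53 to -0.91), and for Ccl7, by -1.71 (-2.59 to -0.84), WT minus KO. Both come from a normal test of the difference on read counts over all genes, with Benjamini-Hochberg adjusted p of 0.0035 and 0.0090. The Input is not subtracted in these values. The LPS change of the Input differed in the same direction, by -0.50 (-0.97 to -0.03) for Ccl4, which did not pass. For Ccl7 it was -0.26 (-1.55 to 1.03), not tested. Over the scalings, the adjusted p of Ccl4 ran up to 0.013 and that of Ccl7 up to 0.025, both with library totals, at -1.42 and -1.41. The untreated KO RIP held 13 reads of Ccl4 and 11 of Ccl7, the lowest of the 4 RIPs in each case, and was the shallowest of the 8 libraries; the part of its depth in these values was not tested.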

How the results depend on the processing

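No paired analysis was possible because each combination of genotype, treatment and assay had a single library, and for the same reason no library could be left out. The scaling moved the RIP ratios between genotypes. The median over all genes went from -0.10 to 0.75 (library totals) and 0.14 (TMM) untreated, and from -0.04 to 1.10 and 0.29 with LPS, and the share of calls in the WT direction from 41.8% to 98.2% and 69.2%, and from 41.7% to 98.2% and 72.0%; with median-of-ratios scaling it was 54.6% and 57.1%. Members called between the RIPs with LPS, 4 on the 3′-UTR totals, were 8 with library totals and 7 with TMM. Members past 0.5 after Input correction were 5 in place of 3 untreated with library totals, and with LPS 6 with library totals and 5 with TMM or median-of-ratios scaling in place of 3. The input-corrected ratio of Ccl5 with LPS turned from -1.07 to 0.13 with library totals and was above 0 with log2 of RPKM + 1 too, as was that of Ccl22 (0.37 and 0.14, against -0.83).

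With its preset variation, edgeR's exact test called 2 members in place of 4 between the untreated RIPs (Ccl2 and Ccl3), 0 in place of 4 between the RIPs with LPS, and 5 in place of 8 for the LPS change of the KO Input. With at least 50 reads the last was 5 as well, as fewer members are tested. The counts of RIP over Input and of the LPS change of the RIPs were added to these alternatives after seeing the data. With edgeR's exact test, members called for RIP over Input went from 4 to 2 (untreated WT), 5 to 1 (WT with LPS), 2 to 0 (untreated KO) and 3 to 0 (KO with LPS), and for the LPS change of the RIPs from 8 to 3 (WT) and 7 to 4 (KO). For RIP over Input of untreated KO cells the count was 4 with library totals, 1 with at least 50 reads and 1 with the exact binomial test, and for the KO with LPS 5 with library totals. The other counts of members called or past 0.5 were within 1.5 times the value given under the alternatives run. These counts add both directions, whose split could change. For RIP over Input of the WT with LPS, 2 RIP and 3 Input calls became 5 and 1 with library totals and 4 and 1 with TMM. In untreated KO cells, 1 and 1 became 0 and 3 with TMM. Of the single ratios, 24 gained a call and 6 lost it with library totals, 11 and 3 with TMM, and 5 and 1 with median-of-ratios scaling. A further 1 lost its call with no read minimum, 2 gained one with 0.1 reads added, and none changed with the longest region. On log2 of RPKM + 1, 46 lay outside their 95% interval. The members with fewer than 10 reads in an untreated pair, Ccl5, Ccl12, Ccl17 and Ccl22 in the RIPs, were not tested there.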
